A study of Mus musculus with 4 samples.

Results

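The 10 genes described here mark mesothelium, the sheet of flat cells that covers the liver and lines the body cavities. They were chosen by symbol, as Msln, Upk3b, Upk1b, Lrrn4, Wt1, Krt19, Krt8, Krt18, Igfbp6 and Muc16, and all 10 were found among the 32285 genes of the count matrices. The study profiled single liver cells by droplet RNA sequencing (10x Genomics) in 2 Control libraries and 2 libraries labelled Cyr61 KO. All mice were male, of strain Cyr61fl/fl, aged 24 weeks, and had received a NASH diet for 12 weeks. Control mice therefore carried the floxed allele too, and the labels state neither in which cells Cyr61 was deleted nor whether a library stands for 1 animal. Livers were frozen in serum with DMSO, thawed, digested and cleared of dead cells on a column, so the cells counted are those that survived these steps.

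Mesothelial cells are unusual in holding traits of both epithelium and connective tissue: they rest on a basement membrane, build keratin filaments and a glycoprotein coat, and also make matrix proteins. In the developing liver they express the transcription factor Wt1 and give rise to stellate cells and fibroblasts beneath the capsule. In injured adult liver they can lose epithelial traits and take on those of fibroblasts. For this reason each barcode was read for the matrix transcripts Dcn (decorin, a proteoglycan that binds collagen fibrils) and Col3a1 (a chain of fibrillar type III collagen) beside the members.

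The members fall into 3 groups by role. Msln (mesothelin, a membrane-anchored glycoprotein) and Muc16 (a large membrane mucin that binds mesothelin) form part of the cell surface, together with the uroplakins Upk3b and Upk1b and the leucine-rich repeat membrane protein Lrrn4. Krt8, Krt18 and Krt19 are keratins of simple epithelia, and Krt8 pairs with Krt18 in the filament. Wt1 is a zinc finger transcription factor and Igfbp6 a secreted protein that binds insulin-like growth factors, with a preference for IGF-II. Below, Msln, Upk3b, Upk1b, Lrrn4, Wt1 and Muc16 are called the 6 restricted members, since the keratins also mark bile duct cells and hepatocytes and Igfbp6 is made by many fibroblasts.

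All 10 members are protein-coding in the GENCODE M21 annotation of build GRCm38. Krt8 (chromosome 15, 101996698 to 102004482, minus strand), Krt18 (102028180 to 102032027, plus strand) and Igfbp6 (102144362 to 102149511, plus strand) lie on 1 stretch of chromosome 15, with 23.7 kb between the keratins and 112.3 kb between Krt18 and Igfbp6. Msln lies on chromosome 17 (25748613 to 25754378, minus strand), Upk1b on chromosome 16 (38773184 to 38800328, minus strand), Krt19 on chromosome 11 (100140810 to 100148665, minus strand) and Wt1 on chromosome 2 (105126529 to 105173616, plus strand). Upk3b lies on chromosome 5 (136038496 to 136046487, plus strand), Lrrn4 on chromosome 2 (132868305 to 132880891, minus strand) and Muc16 on chromosome 9 (18495455 to 18674530, minus strand). Krt8 is overlapped on the other strand by the long non-coding RNA gene Gm36026.

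The promoters RefSeq gives for 6 of the 10 members (Upk3b, Lrrn4, Krt8, Krt18, Igfbp6 and Muc16) were searched on both strands for 5 motifs. Positions are on build GRCm38.p6. Each window holds 250 bases before and 50 after the start site. The 4 windows with a match follow, 5′ to 3′ on the gene's strand, with the matches in capitals.
Upk3b, chr5:136038246-136038545, plus strand: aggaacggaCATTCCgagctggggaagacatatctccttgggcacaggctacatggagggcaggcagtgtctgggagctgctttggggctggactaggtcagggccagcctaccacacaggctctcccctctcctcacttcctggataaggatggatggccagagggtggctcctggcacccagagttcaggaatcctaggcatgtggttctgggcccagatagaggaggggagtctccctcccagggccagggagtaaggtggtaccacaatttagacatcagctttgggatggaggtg
Lrrn4, chr2:132880813-132881112, minus strand: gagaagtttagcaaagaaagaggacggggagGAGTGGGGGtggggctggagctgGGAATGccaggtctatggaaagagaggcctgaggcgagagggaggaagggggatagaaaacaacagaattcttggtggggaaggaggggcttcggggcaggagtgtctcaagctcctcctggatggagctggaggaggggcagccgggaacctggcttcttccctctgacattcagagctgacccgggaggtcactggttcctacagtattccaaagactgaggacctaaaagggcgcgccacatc
Igfbp6, chr15:102143936-102144235, plus strand: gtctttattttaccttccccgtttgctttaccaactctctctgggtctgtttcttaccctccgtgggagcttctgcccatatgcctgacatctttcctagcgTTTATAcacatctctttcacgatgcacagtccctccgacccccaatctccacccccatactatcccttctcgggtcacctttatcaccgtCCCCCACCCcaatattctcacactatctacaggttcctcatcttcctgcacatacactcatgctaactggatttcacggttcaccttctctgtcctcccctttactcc
Krt8, chr15:102004293-102004592, minus strand: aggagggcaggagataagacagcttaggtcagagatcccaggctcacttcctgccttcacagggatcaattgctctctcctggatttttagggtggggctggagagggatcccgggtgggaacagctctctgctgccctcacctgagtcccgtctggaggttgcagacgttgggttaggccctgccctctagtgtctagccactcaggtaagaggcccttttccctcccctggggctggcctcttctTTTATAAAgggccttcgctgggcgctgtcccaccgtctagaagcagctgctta
Upk3b and Lrrn4 hold the core bound by TEAD factors (GGAATG), the DNA-binding partners of YAP, of which Cyr61 is a well-known target. This motif occurs in 14.66% of the 32851 promoters in the table. Lrrn4 and Igfbp6 hold a form of the WT1 and EGR motif (GNGTGGGNG), found in 14.31% of promoters. Krt8 and Igfbp6 hold the TATA box letters (TATAAA), found in 13.62%, and in Krt8 the matches on the 2 strands overlap each other and the start site. No match to the AP-1 motif TGANTCA (7.808% of promoters) or the SP and KLF motif GGGCGG (35.66%) lay in the 6 windows. Matches are a description of the letters and not evidence of binding, and whether the members share regulation was not tested.

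The matrices held 4852 to 7253 barcodes per library, each with at least 500 UMIs (unique molecular identifiers, which count captured transcripts once each). After filters, 4531 barcodes were kept in Control 1, 6672 in Control 2, 6739 in KO 1 and 4842 in KO 2, with 7677068 to 18778534 UMIs per library and medians of 1204 (Control 1) to 2810.5 UMIs (KO 2) per barcode. Any 2 libraries shared 6 to 22 barcode sequences. Counts of replicate libraries differed by more than sampling noise, with a chi-squared of 36.2 (Control) and 17.6 (KO) per degree of freedom. The targeted gene Cyr61, listed as Ccn1, had 171 and 146 UMIs in the Control libraries and 0 and 1 in KO 1 and KO 2.

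Transcripts of the members were abundant in both Control libraries and close to absent in both KO libraries. Msln had 653 UMIs in Control 1, 413 in Control 2, 0 in KO 1 and 0 in KO 2. Upk3b, a uroplakin that marks mesothelium in many organs, had 1203, 791, 1 and 0 UMIs in the same order of libraries. Wt1 had 378, 343, 0 and 0. In each case the lowest Control library was far above the highest KO library. Upk1b (535, 386, 0 and 0), Krt19 (617, 515, 0 and 0) and Muc16 (291, 168, 0 and 0) had the same pattern, so that Krt19 and 5 of the 6 restricted members each had at most 1 UMI in 11581 KO barcodes. The 4 other members kept a few KO transcripts. Lrrn4 had 377 and 302 UMIs in Control and 11 and 3 in KO. Krt8 had 281 and 200 in Control and 19 and 13 in KO, and Krt18, at 24.1 and 10.6 UMIs per 1000000 in Control, had 12 and 17 UMIs in KO. Igfbp6 had 2575 and 2448 UMIs in Control and 24 and 18 in KO.

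**Figure D1:**
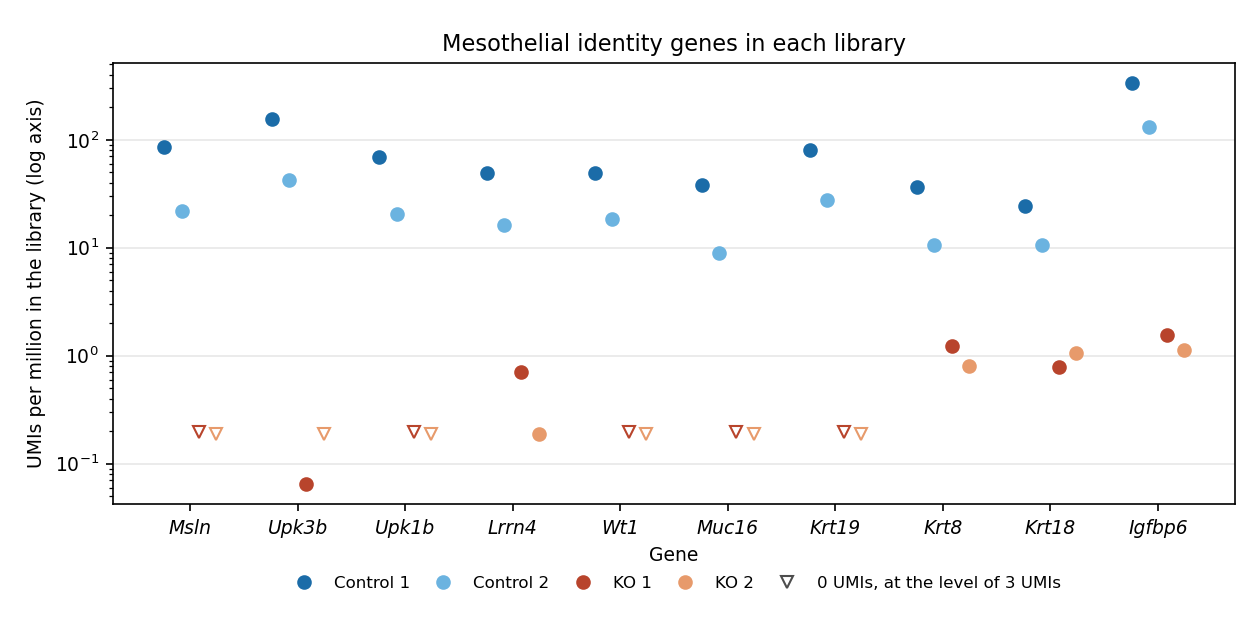
UMIs per 1000000 in each of the 4 libraries (vertical log axis) for the 10 members (horizontal axis). Filled points are measured levels, and open triangles stand at the level of 3 UMIs for a library with 0. All Control points lie at 8.95 per 1000000 or above, and all KO points at 1.55 per 1000000 or below.

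Scaled to UMIs per 1000000 (CPM), Msln averaged 53.5 ± 44.6 (SD, n = 2) in Control and 0 in both KO libraries. Control 1 had the higher level for each member, at 85.1 against 22.0 CPM for Msln and 335 against 130 CPM for Igfbp6. The SD within Control was therefore nearly as large as the mean for several members. Set against the limit that a count of 0 allows (3 UMIs over both KO libraries), the KO level of Krt19 was at least 449-fold lower than in Control, that of Msln at least 423-fold, Upk1b at least 366-fold, Wt1 at least 286-fold and Muc16 at least 182-fold. For Upk3b, with 1 KO UMI, the ratio of Control to KO was 2374 (95% counting interval 426 to 93832). For the members with more KO transcripts it was 142 for Igfbp6 (105 to 198), 57.8 for Lrrn4 (34.2 to 106), 17.9 for Krt8 (12.5 to 26.5) and 15.8 for Krt18 (10.8 to 23.9). Such limits and intervals cover counting error only.

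Tested over the 14174 genes with enough counts in library sums, all 10 members were lower in KO (edgeR's quasi-likelihood test with Benjamini-Hochberg adjustment, adjusted p from 0.00534 for Igfbp6 to 0.0174 for Muc16). The members were chosen with earlier results of these data known, so these p-values do not test a list fixed beforehand. Over all genes tested, 9.2% were lower in KO and 2.21% were higher. The median fitted log2 fold change of the members was -11.23, against 4.56e-05 over all genes. Fitted values of genes with 0 KO counts depend on the prior count, and with the 5 such members set at the bound of 3 UMIs the median was -7.84. For members with counts in both groups, the log2 fold change was -7.36 ± 0.53 (SE) for Igfbp6, -6.06 ± 0.71 for Lrrn4, -4.41 ± 0.63 for Krt8 and -4.13 ± 0.44 for Krt18. Without KO replicate 2, Krt8 no longer passed (adjusted p = 0.0510). With 2 libraries per group, a p-value here reflects the spread between libraries alone, which may be technical. In such sums, fewer cells of a type and less RNA per cell cannot be told apart, so the members were next counted per barcode.

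A barcode was called positive for the matrix pair when it held at least 1 UMI of Dcn and 1 of Col3a1. In Control 1, 223 of 4531 barcodes (4.92%, exact 95% interval 4.31 to 5.59) were positive, in Control 2, 62 of 6672 (0.929%, 0.713 to 1.19). None was positive in KO 1 or KO 2, which allows a share of up to 0.0445% and 0.0620% (3 barcodes of the total; the exact 95% upper limits were 0.0547% and 0.0762%). Barcodes with at least 2 restricted members numbered 212 in Control 1 (4.68%), 57 in Control 2 (0.854%), 0 in KO 1 and 0 in KO 2. The groups did not overlap in either share. Whether the tissue held fewer such cells or fewer were recovered from it in the KO libraries cannot be told apart. By an exact permutation test (two-sided) p was 0.333, the smallest value that 2 libraries against 2 can reach. Dcn itself had 7096 and 10256 UMIs in Control and 1 and 0 in KO, and Col3a1 had 3251 and 3145 in Control and 0 in both KO libraries.

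The matrix pair and the mesothelial genes were largely found in the same barcodes. Of the barcodes with Dcn and Col3a1, 77.1% (95% interval 71.1 to 82.5) in Control 1 and 88.7% (78.1 to 95.3) in Control 2 held at least 2 restricted members. Read the other way, of the barcodes with at least 2 restricted members, 81.1% in Control 1 and 96.5% in Control 2 held both matrix transcripts, and 99.1% and 98.2% held Dcn. The barcodes with at least 2 restricted members that lacked the pair had median depths of 1005 UMIs in Control 1 and 3719 in Control 2 (only 2 barcodes), against 2643 and 14680 over all barcodes with the pair. After each barcode was thinned to 1000 UMIs and shallower ones left out, the share of pair-positive barcodes with at least 2 restricted members was 56.4% of 156 in Control 1 and 50.0% of 52 in Control 2. The order of the 2 Control libraries was thus the opposite of that without thinning.

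**Figure D2:**
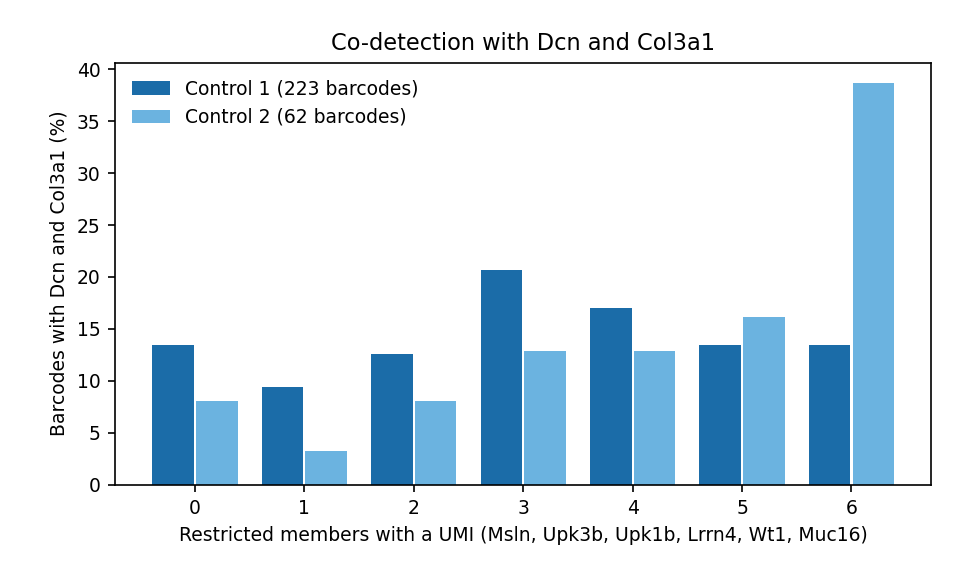
Share of the barcodes with Dcn and Col3a1 (vertical axis, %) by the number of the 6 restricted members with a UMI (horizontal axis), for Control 1 (223 barcodes) and Control 2 (62 barcodes); KO libraries had no such barcode. In Control 2, 38.7% held all 6, against 13.5% in Control 1, and 13.5% and 8.06% held none in Control 1 and Control 2.

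Each member was more often seen in pair-positive barcodes than in barcodes with neither matrix transcript. Upk3b was detected in 69.1% and 80.6% of pair-positive barcodes of Control 1 and Control 2, and in 0.261% of 4213 and 0 of 6555 barcodes with neither. Wt1 was detected in 61.0% and 88.7%, against 0.0712% and 0.0458%. Muc16, the least often detected restricted member in both libraries, was seen in 33.2% and 46.8%, against 0.0712% and 0.0153%. Depth differed as well, since barcodes with neither transcript had medians of 1182 and 2180 UMIs. In Control 1 each keratin was seen in 0.593% to 0.641% of barcodes with neither, against 0.0712% to 0.261% for the restricted members. By their UMIs the keratins stood apart from all other members. In that library Krt18 was seen in 18.4% of pair-positive barcodes and in 0.641% of those with neither, which held 66 of its 185 UMIs. Igfbp6 was seen in more of the barcodes with neither (0.878%), but these held only 40 of its 2575 UMIs.

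Within pair-positive barcodes the members had similar levels in the 2 Control libraries, in contrast to the library totals. Msln stood at 450 CPM in Control 1 and 397 in Control 2, Upk3b at 863 and 760, Lrrn4 at 279 and 286, and Wt1 at 277 and 325. Larger gaps were seen for Krt18 (88.0 and 185 CPM) and for Igfbp6 (1848 and 2314). A median of 5 of the 10 members was detected per pair-positive barcode in Control 1 and 7 in Control 2. These levels are over all barcodes of a library together and have no replicate error of their own.

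Clustering was done without the 10 members. Cluster 1, which held 312 barcodes of Control 1, 69 of Control 2, 1 of KO 1 and 1 of KO 2, took 95.6% (Krt18) to 99.5% (Msln) of each member's Control UMIs. Its leading genes were Dcn, Sparc, Col3a1, Clu and Col1a2, of which all but Clu encode matrix proteins. It is called the stromal cluster and not mesothelium, since it also held barcodes without restricted members. In the pair-positive barcodes the 11 fibroblast markers summed to 12072 CPM in Control 1 and 16410 in Control 2, and the 8 hepatic stellate cell markers to 498 and 570, against 111 and 44.0 over the whole libraries. Of these 8, Lrat (which makes the retinyl esters stellate cells store) and Rgs5 were at 0 in both libraries, Reln and Colec11 were at 0 in Control 1, and Hgf, Ecm1, Des and Pdgfrb were detected in both. The 8 bile duct markers summed to 189 and 298 CPM there, with Cldn7 and Tm4sf4 among those at 0, and the 8 hepatocyte markers to 4.75 and 2.89. Its 2 KO barcodes, with 1402 and 1506 UMIs, held no member, no Dcn and no Col3a1. Levels of the members within stromal barcodes could therefore not be compared between KO and Control.

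The stromal cluster was not uniform in the members, and 3 sets of Control barcodes were described in it. The largest, called the mesothelial set after the genes that define it, held at least 2 restricted members per barcode. It had 211 barcodes in Control 1 and 56 in Control 2. Since restricted members define it, their UMIs had to be concentrated there, and the shares are a description: 96.8% and 100% of each library's Msln UMIs and 99.6% and 99.2% of those of Upk1b. For Wt1 the share was lower, at 87.3% and 95.6%, with 11.6% and 2.92% in the 52 and 9 barcodes of the cluster outside the 3 sets. Dcn stood at 4986 and 9858 CPM in these barcodes and Col1a1, the main chain of type I collagen, at 1097 and 1008. Dpt (dermatopontin), a marker of adventitial fibroblasts, had 0 UMIs in these barcodes of either library. Over all kept barcodes it had 124 UMIs in Control 1 but only 1 in Control 2. The other 10 of the 11 fibroblast markers had UMIs in the set in both libraries. The name of the set is therefore not a cell type call. Mesothelial genes and abundant collagen transcripts were thus measured in the same barcodes.

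The next set held Dcn and Col3a1 but no restricted member, in 30 barcodes of Control 1 and 4 of Control 2. In Control 1 these barcodes had no UMI of Krt8 and 3 of Krt19, but Igfbp6 was at 1336 CPM, against 1983 in the mesothelial set. They also held fibroblast genes at higher levels than the mesothelial set of that library: Pi16 at 1801 against 11.0 CPM, Dpt at 1351 against 0 and Lum (lumican) at 780.5 against 121. Only 9 of the 30 barcodes held Dpt and 9 held Pi16. Their median depth was 1486.5 UMIs, against 2111 in the mesothelial set, and the part of depth in the absence of restricted members from single barcodes was not tested. The 4 barcodes in Control 2 had no Dpt and no Pi16. Summed over the 11 fibroblast markers, the direction differed between the libraries. The sum was 23265 CPM in this set against 10816 in the mesothelial set in Control 1, but 5183 against 16471 in Control 2.

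The last set was described after its values were seen and held the keratins without Dcn. It consisted of 19 barcodes of Control 1 with at least 2 of Krt19, Krt8 and Krt18, fewer than 2 restricted members and no Dcn. These held 69 of 617 Krt19 UMIs (11.2%), 64 of 281 Krt8 UMIs (22.8%) and 54 of 185 Krt18 UMIs (29.2%) of Control 1, and Control 2 had no such barcode. Of 8 bile duct markers, 7 were detected in them, among them Tm4sf4 in 84.2%, Cldn7 in 68.4%, Krt7 in 57.9% and Epcam in 52.6% of the 19. Summed, the 8 markers stood at 4050 CPM, against 229 CPM in the mesothelial set of Control 1, where Cldn7 and Tm4sf4 were at 0. Of 8 hepatocyte markers, 2 had UMIs in the 19 barcodes, and the list summed to 1982 CPM there against 5.07 CPM in the mesothelial set. The 19 barcodes are therefore given no cell type name. Upk3b, Upk1b, Lrrn4, Muc16, Igfbp6, Col3a1 and Ptprc, the pan-leukocyte marker, had 0 UMIs in the 19 barcodes, while Msln had 6 and Wt1 2. Leaving them out of the library sums kept all 10 members lower in KO.

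**Figure D3:**
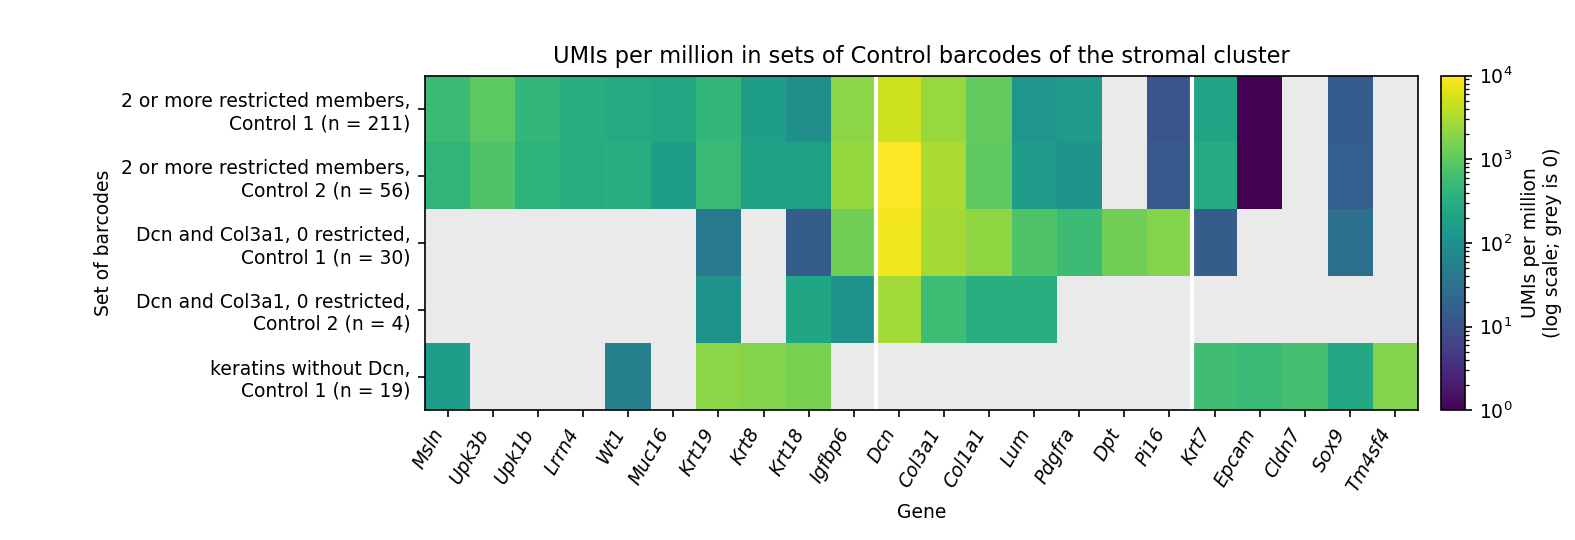
UMIs per 1000000 (colour, log scale; grey is 0) of the members (left block), matrix and fibroblast genes (middle) and bile duct markers (right) in sets of Control barcodes of the stromal cluster (rows, with the number of barcodes). The restricted members fill the first pair of rows, Dpt and Pi16 the Control 1 row with 0 restricted members, and the duct markers the keratin row without Dcn.

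Outside the stromal cluster the members were rare, and where they were seen their carriers differed by gene. In hepatocyte-like barcodes, 4 of 17 in Control (23.5%) and 22 of 80 in KO (27.5%) held Krt8, and 5 of 17 (29.4%) and 13 of 80 (16.3%) held Krt18, both of which hepatocytes are known to make. The Krt8 level in these barcodes was 223 CPM for Control and 229 CPM for KO. They held 31 of the 32 Krt8 UMIs and 22 of the 29 Krt18 UMIs of the KO libraries. Krt19, which mature hepatocytes lack, had 0 UMIs in them in both groups. Hepatocyte-like barcodes were more numerous in the KO libraries (54 and 26) than in Control (6 and 11), and the part of this in the library levels of Krt8 and Krt18 was not tested.

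Immune classes gave the background. Over 10684 immune barcodes of Control (median 1655.5 UMIs) the share with a UMI ran from 0.00936% for Muc16 to 0.702% for Igfbp6, and the 6 restricted members had 34 UMIs there. Over 11461 immune barcodes of KO (median 2237 UMIs), Msln, Upk1b, Wt1, Muc16 and Krt19 had none. Dcn was seen in 66 Control immune barcodes (0.618%) and in 1 of KO. After thinning to 1000 UMIs, Upk3b was seen in 2 of 2501 Control 1 immune barcodes and in 0 of 5109, 5173 and 4299 in the other libraries. No Control immune barcode held more than 2 UMIs of any 1 restricted member, and 1 T cell-like and 1 monocyte or macrophage-like barcode of Control held at least 2 restricted members. In KO immune barcodes the restricted members other than Lrrn4 had 1 UMI in all, of Upk3b.

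Igfbp6 and Lrrn4 differed from this. All 42 Igfbp6 UMIs and all 14 Lrrn4 UMIs of the KO libraries lay in immune barcodes, although these libraries held no pair-positive barcode. Igfbp6 was seen in 13 of 258 neutrophil-like barcodes in Control (5.04%) and in 6 of 127 in KO (4.72%), while Dcn had 0 UMIs in neutrophil-like barcodes of either group. It was seen in 8 of 602 natural killer or innate lymphoid cell-like barcodes in Control (1.33%) and 8 of 966 in KO (0.828%), and in 17 of 5573 T cell-like barcodes in Control (0.305%) and 18 of 5596 in KO (0.322%). In B cell-like barcodes the shares were 0.129% and 0.0247%. Over all immune classes, including those not listed here, Igfbp6 was seen in 0.891% of barcodes in Control 1 and 0.582% in Control 2. For KO 1 and KO 2 these shares were 0.345% and 0.354%. In number, 75 Control immune barcodes and 40 KO barcodes held Igfbp6. Most of this difference lay in the unlisted monocyte or macrophage-like, dendritic cell-like and cycling cell-like classes, which also had fewer barcodes in KO. Lrrn4 was seen in 7 T cell-like barcodes of Control (0.126%) and 9 of KO (0.161%), and in no natural killer or innate lymphoid cell-like barcode of either group. No single KO barcode held more than 2 UMIs of Igfbp6 or Lrrn4, whereas a barcode of the stromal cluster held up to 173 and 23.

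**Figure D4:**
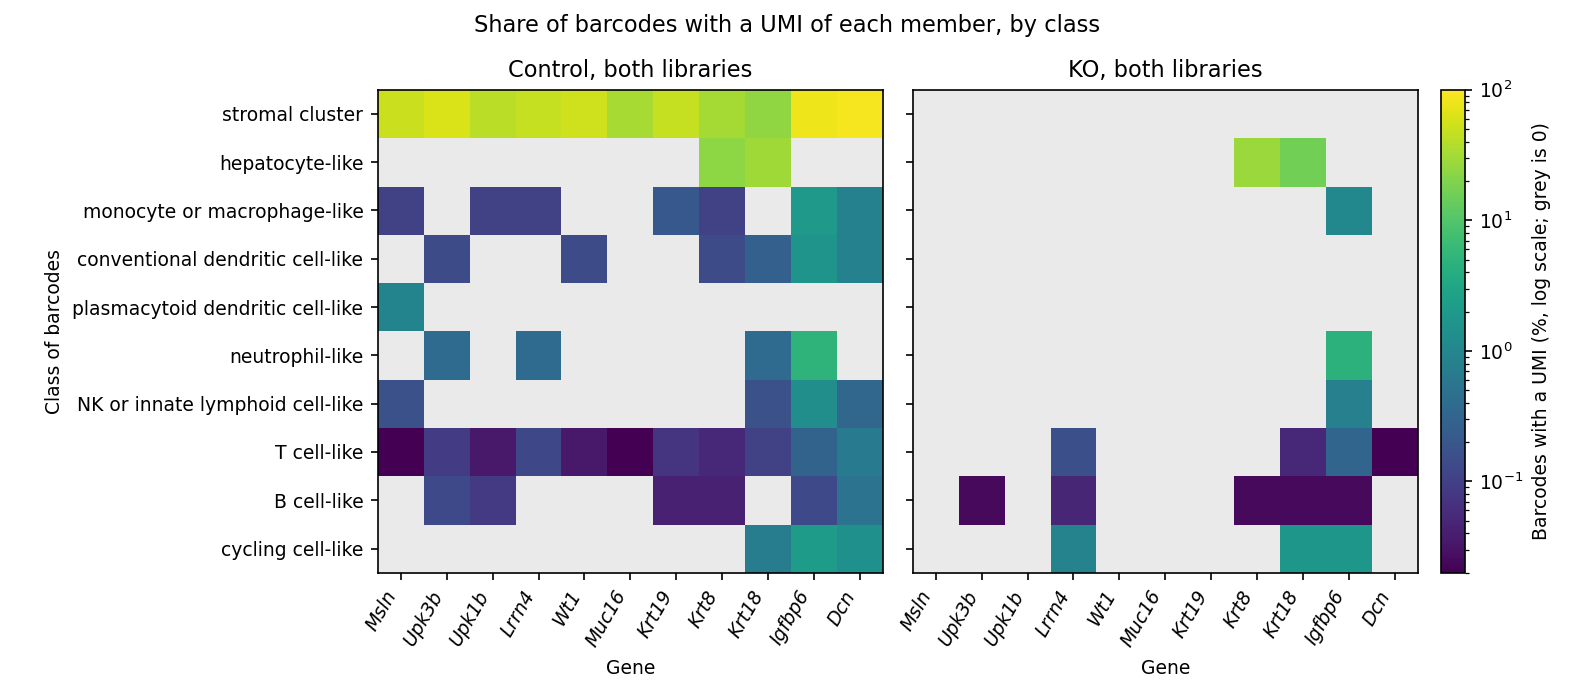
Share of barcodes with at least 1 UMI (colour, %, log scale; grey is 0) for the 10 members and Dcn (columns) in each class (rows), with both Control libraries pooled on the left and both KO libraries on the right. In KO the stromal row is empty, Krt8 and Krt18 appear in the hepatocyte-like row, and Igfbp6 appears in neutrophil-like barcodes at 4.72%, against 5.04% in Control.

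With the stromal cluster left out (a fit added after seeing the data), 4 of the 10 members had enough counts to be tested and 0 passed. In this fit 1.97% of 13420 genes were lower in KO and 0.775% were higher. The log2 fold change was 0.13 ± 0.83 for Lrrn4, 0.78 ± 0.76 for Krt8, 0.10 ± 0.73 for Krt18 and -1.62 ± 0.50 for Igfbp6 (edgeR, adjusted p = 0.951, 0.611, 0.955 and 0.129). At an unadjusted p under 0.05 in the edgeR fit, 1 member (Igfbp6) was lower, as were 1598 of the 13420 genes. DESeq2 also called 0 members. Without Control replicate 2, which left 1 Control library, the log2 fold change of Igfbp6 was -2.21. With no filter on low counts, Igfbp6 (-1.57, edgeR adjusted p = 0.000718) and Upk3b (edgeR adjusted p = 0.0475) passed. With that setting 1076 of 22972 genes were lower in KO. In the main fit outside the cluster, Dcn was lower (log2 fold change -6.32, edgeR adjusted p = 0.0191). Col3a1 did not pass there (-7.41, edgeR adjusted p = 0.0652). Transcripts of Dcn outside the stromal cluster thus also differed between the groups. Within single immune classes, 7 classes had enough barcodes, and 1 member was testable in 1 of them, Igfbp6 in T cell-like barcodes. Its log2 fold change there was -0.44 ± 0.66 (edgeR, adjusted p = 0.813, unadjusted p = 0.522), DESeq2 also called 0 members, and 0.54% of 11482 genes were called in the class in either direction.

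Other genes of the same themes were read from lists, by count and median only. These lists too were chosen with earlier results of these data known. Of 16 other mesothelial genes 15 were testable, and all 15 were lower in KO (median log2 fold change -7.96, or -6.56 with the 5 genes at 0 KO counts set at their bound; 9.2% of all genes were lower). Nkain4, an ion pump-interacting protein, had 1187 and 1058 UMIs in Control and 0 in both KO libraries, and Gas1, a membrane protein of the hedgehog pathway, had 1039 and 821 against 0 and 1. Clu (clusterin, a secreted chaperone) had 3024 and 2237 against 6 and 6. Slpi, a secreted protease inhibitor, fell least among the 4 with most UMIs, with 3359 and 5510 against 730 and 540 (log2 fold change -3.12 ± 0.25, adjusted p = 0.00620). Calb2 (calretinin), a textbook marker of human mesothelium, had 0 UMIs in all 4 libraries.

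Of 15 fibroblast matrix genes 14 were testable and 13 were lower in KO (median log2 fold change -10.50, or -8.92 with the 5 genes at 0 KO counts set at their bound). Sparc, a collagen-binding glycoprotein, had 3941 and 3836 UMIs in Control and 1 in each KO library, while Fn1 (fibronectin) kept 910 and 847 KO UMIs against 4330 and 3509 (log2 fold change -2.67 ± 0.45). Pi16 was the 1 testable gene that did not pass (246, 167, 89 and 72 UMIs, adjusted p = 0.0748). Among 12 other simple epithelial genes 8 were testable, 4 were lower and 4 did not pass (median log2 fold change -1.98). Krt7, a keratin of ducts and mesothelium, had 286 and 295 UMIs against 5 and 2, whereas Ezr (ezrin), which links actin to the membrane in many cell types, had a log2 fold change of 0.19 ± 0.14 (adjusted p = 0.416). Epcam, at 50, 73, 58 and 80 UMIs, did not pass either (adjusted p = 0.770).

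Among insulin-like growth factors and their binding proteins, 5 of 8 were testable and 5 were lower (median log2 fold change -7.53). Igfbp5 had 2099 and 1134 UMIs in Control and 0 and 1 in KO, and Igfbp7 1465 and 1788 against 4 and 19. Igfbp4 was lower by less, with 902 and 1726 against 671 and 805 UMIs (log2 fold change -1.11 ± 0.14, adjusted p = 0.0123). The 4 other uroplakin genes were too low to test: Upk2, Upk3a and Upk3bl had 0 UMIs in every library and Upk1a had 3, 8, 9 and 10. Upk3b and Upk1b were thus detected without the urothelial uroplakins Upk2 and Upk3a.

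Genes most like the members were sought within the pair-positive Control barcodes, as the mean correlation of a gene with the mean member level (log of 1 + UMIs per 10000) over 223 barcodes of Control 1 and 62 of Control 2. Of 5557 genes compared, the 8 highest were Crip1, Gpm6a, Cldn15, Slc9a3r1, Pkhd1l1, Lgals7, Igfbp5 and Krt7, with mean r from 0.65 to 0.53. Gpm6a (a neuronal membrane glycoprotein also found in mesothelium), Cldn15 (a tight junction protein) and Krt7 were seen in few UMIs outside Control libraries (2 and 0, 2 and 7, and 5 and 2 in KO), whereas Crip1 had 28109 and 24186 KO UMIs. The 4 lowest were Gatm, Cyp1b1, Lum and Cxcl12, with mean r from -0.47 to -0.41. Lum and Cxcl12 are fibroblast genes. The mean member level itself correlated with log depth at 0.17 in Control 1 and 0.47 in Control 2, and all barcodes of a library share its preparation.

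Most transcripts of Ccn1, which encodes a secreted protein of the extracellular matrix, lay in the same Control barcodes as the mesothelial genes. In Control, barcodes of the stromal cluster with at least 2 restricted members held 136 of the 171 UMIs in Control 1 (79.5%) and 135 of the 146 in Control 2 (92.5%). The level was higher in the barcodes of the cluster outside the 3 sets: 52 such barcodes of Control 1 held 32 UMIs (18.7%) at 274 CPM, against 115 CPM in the mesothelial set, and 9 of Control 2 held 10 UMIs, all in 1 barcode, at 296 against 134 CPM. Over all Control immune barcodes Ccn1 had 2 UMIs, and over those of KO 1. KO libraries held no barcode with at least 2 restricted members. Whether Ccn1 was lower within such barcodes could therefore not be read from these data. The low KO counts of Ccn1 do not by themselves check the label. Before doublets were removed KO 2 had 12 Ccn1 UMIs, of which 11 lay in 1 barcode that held no member UMI.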

How the data were processed

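Droplet single-cell libraries of liver were analysed from 2 Control and 2 Cyr61 KO samples. The authors deposited raw counts, 1 matrix of UMIs by gene and barcode for each library. Per the submitters' processing notes, the tool was Cell Ranger 3.1.0 and the build mm10. Of 32285 gene identifiers, 99.8% matched GENCODE M21 (GRCm38). Barcodes were kept with at least 500 UMIs, 250 genes and at most 25% mitochondrial UMIs. Scrublet called 0%, 0%, 0.0276% and 1.49% of barcodes as doublets, too few to rely on, so in every library the top-scoring barcodes were dropped, 0.8% for each 1000 barcodes. Clusters were rebuilt, since no cell annotation was used: 2000 variable genes without the members, 30 components, 15 neighbours, Leiden resolution 1.0 (scanpy 1.11.5, Python 3.11.15). Classes were named "X-like" from marker lists, and may differ from the study's own.

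UMIs were summed per library and tested with edgeR 4.0.16 (TMM, filterByExpr, quasi-likelihood, no covariate, R 4.3.3). The threshold was an adjusted p below 0.05 over all genes. On simulated library sums the test recovered 16% of 2-fold and 92% of 4-fold changes. Absence of a call therefore does not exclude a 2-fold change. The SE of an edgeR log2 fold change is its absolute value divided by the square root of the F statistic. Classes with at least 20 barcodes in each library were tested alike. Intervals are exact binomial or counting intervals at 95%. Alternatives were DESeq2 1.42.0, other scaling, filters and doublet treatment, the replicate number as a block, and each library left out. The members and gene lists were chosen with earlier results of these data known. Named beside the members were Dcn, Col3a1, Ccn1, up to 4 genes with most UMIs per list, and the 8 most and 4 least like genes among those in at least 10% of pair-positive barcodes of each Control library. Calb2, Pi16 and the further genes of the 3 sets of Control barcodes were named after their values were seen.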

Additional observations from a re-analysis of the deposited data

How the results depend on the processing

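All 10 members remained lower in KO under each of 13 alternatives of the library sums: of 130 member values, 129 stayed past the threshold and 1 did not (Krt8 without KO replicate 2). Counts over all genes moved more. Genes lower in KO numbered 1304, but 2421 with no filter on low counts, and 329 to 2728 when 1 library was left out. Genes higher in KO numbered 313, but 500 with DESeq2, 1131 with no filter on low counts, 196 with all barcodes as deposited, 205 with doublets kept and 204 with at least 1000 UMIs, and 21 to 2019 when 1 library was left out. The causes were not tested. With the replicate number as a block, 2581 genes were lower and 1567 higher. Same-numbered libraries deviated together weakly (correlation 0.11 over 14174 genes), with 2 pairs and no label that pairs them, so the block was not used as the main fit. Outside the stromal cluster 0 members passed, but 2 with no filter on low counts and 0 to 1 when 1 library was left out. In all immune classes pooled 0 passed, but 1 with no filter on low counts and 0 to 1 when 1 library was left out. The share of pair-positive Control barcodes with at least 2 restricted members was 82.9% ± 8.19 (SD, n = 2) and 53.2% after thinning to 1000 UMIs, which removes counts by construction. Gate shares kept their direction under every alternative. With all barcodes as deposited, each gate already had 0 KO barcodes. Settings that only remove barcodes or UMIs therefore could not reverse the direction. At 2 libraries a group, no permutation test of a share can pass. KO libraries held no barcode with at least 2 restricted members, so levels per cell could not be measured there.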

Other observations

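Among Control barcodes with Dcn and Col3a1, those with 1 or 2 restricted members had a higher level of Lum than those with 3 to 6 in both libraries, and a higher level of Wt1 mainly in Control 1. In Control 1 these were 49 barcodes (median 1575 UMIs), against 144 with 3 to 6 (median 4762.5 UMIs), and in Control 2 they were 7 (median 11703 UMIs) against 50 (median 15522.5 UMIs). Lum stood at 540 against 101 CPM in Control 1 and at 651 against 124 CPM in Control 2. Wt1 stood at 483 against 267 CPM in Control 1 but at 364 against 324 CPM in Control 2. Upk1b stood at 28.4 against 477 CPM in Control 1 and at 0 against 420 CPM in Control 2. The strata were cut by the number of restricted members detected, so values of the restricted members follow in part from the cut, and no difference was tested.

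Doublet removal took 18 barcodes with Dcn and Col3a1 from Control 1 and 1 from Control 2, and 0 from the KO libraries.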
